A study of Homo sapiens with 8 samples.

Results

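Broad H3K4me1 domains were the peaks of 10 kb or more on chromosomes 1 to 22 and X in 2 lists of peaks from MDA-MB-231 cells, an established triple-negative breast cancer line. The control list held 1663 of them among 82994 peaks (2.00%) and the ARID1A knockout list 1559 among 73600 (2.12%), which made 3222 domains of 156594 peaks. H3K4me1 chromatin immunoprecipitation and sequencing had been done on 2 samples of the control genotype and 2 of the ARID1A knockout, each genotype with 2 input samples, so that 8 samples gave 1 deposited list per genotype. No treatment was named, and both genotypes share the line and the micrococcal nuclease digestion. The labels do not say whether the knockout was 1 clone or a pool. With 1 list per genotype no spread between cultures could be measured, no p-value was computed, and every difference between the genotypes below describes these 2 lists only. The depth behind a peak is unknown. The domains were chosen by their measured width, so widths are a description and were not tested.

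Monomethylation of histone H3 on lysine 4 is laid down largely by the KMT2C and KMT2D methyltransferases and marks enhancers, whether active or primed, and the flanks of active promoters. At the start of an active CpG-rich gene the mark usually gives way to trimethylation, so that it lies on both sides of the start. Broad stretches of it are known from densely packed enhancers within long genes of the cell's own programme. ARID1A is a DNA-binding subunit of the canonical SWI/SNF (BAF) chromatin remodelling complex, which acts at many enhancers, often together with AP-1 and TEAD factors.

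In both lists the broad domains lay mostly inside long genes and away from their starts, and most kept their place in the other genotype. At least 1 base of a knockout peak lay on 1659 of the 1663 control domains, and a control peak lay on 1555 of the 1559 knockout domains. Many were 1 long peak in one list and a row of shorter peaks in the other. At 512 of 2198 loci with a domain the covered bases also differed by at least 1.5 times. Knockout coverage was the larger at 9.10% of loci and control coverage at 14.2%. Over all joined peak regions, not matched for width, these shares were higher, at 27.5% and 35.6%. The widest lay on EXT1, which encodes a heparan sulfate polymerase, on the long noncoding RNA gene PVT1, and on CRIM1, TRIO, SMAD3 and MYH9.

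Some promoters lay within domains, and a few are printed here as examples of their sequence. The RefSeq table used (GRCh38.p14, the coordinates of hg38) gives windows of 300 bases, 250 before and 50 after a transcript start, for 15712 of 19974 protein-coding genes, 22012 windows in all. The start lay in a domain of both lists in 105 windows, of the control list only in 110 and of the knockout list only in 193. The windows below are printed 5′ to 3′ on the strand of the gene, and were chosen after their letters were seen, to show motif matches inside domains. Capitals mark TGANTCA (the AP-1 motif), GGAATG (the TEAD motif) and GGGCGG (the GC box), each searched on both strands. A match is a description of the letters, not of a bound site. Windows whose start lay in a domain of both lists were CD59, encoding an inhibitor of complement (chr11:33722678-33722977, minus strand), CAPN2, a calpain protease (chr1:223701347-223701646, plus strand), SPRED2, an inhibitor of Ras signalling (chr2:65366729-65367028, minus strand), SH3BP4, a trafficking adaptor (chr2:234981124-234981423, plus strand), TES, a focal adhesion protein (chr7:116222703-116223002, plus strand), and AHNAK2, a large scaffold protein (chr14:104978325-104978624, minus strand). The last is printed as the CpG-rich contrast. Windows were drawn from all transcript starts, also those inside a gene record. SPRED2 and SH3BP4 are such internal starts, and their domains did not hold the start of the gene record.
CD59: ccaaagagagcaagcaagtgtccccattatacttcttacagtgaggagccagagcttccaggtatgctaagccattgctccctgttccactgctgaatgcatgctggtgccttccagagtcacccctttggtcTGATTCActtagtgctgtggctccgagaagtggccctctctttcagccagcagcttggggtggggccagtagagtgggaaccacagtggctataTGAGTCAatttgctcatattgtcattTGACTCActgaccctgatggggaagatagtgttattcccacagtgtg
CAPN2: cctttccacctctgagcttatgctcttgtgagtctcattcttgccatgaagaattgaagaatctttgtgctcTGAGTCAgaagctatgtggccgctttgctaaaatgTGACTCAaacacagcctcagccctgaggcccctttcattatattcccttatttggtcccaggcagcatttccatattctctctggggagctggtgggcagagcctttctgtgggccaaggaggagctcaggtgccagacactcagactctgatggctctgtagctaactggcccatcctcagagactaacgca
SPRED2: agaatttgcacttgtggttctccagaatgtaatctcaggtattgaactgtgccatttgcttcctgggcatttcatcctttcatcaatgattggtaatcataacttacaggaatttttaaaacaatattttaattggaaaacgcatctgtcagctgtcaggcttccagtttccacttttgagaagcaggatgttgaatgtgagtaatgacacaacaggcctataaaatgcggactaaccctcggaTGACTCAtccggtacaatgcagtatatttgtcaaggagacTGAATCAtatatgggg
SH3BP4: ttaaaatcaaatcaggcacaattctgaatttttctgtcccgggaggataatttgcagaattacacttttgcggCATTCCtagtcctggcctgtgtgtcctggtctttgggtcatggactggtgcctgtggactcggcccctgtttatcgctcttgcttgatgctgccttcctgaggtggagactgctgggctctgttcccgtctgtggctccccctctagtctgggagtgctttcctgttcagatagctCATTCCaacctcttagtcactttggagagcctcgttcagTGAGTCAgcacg
TES: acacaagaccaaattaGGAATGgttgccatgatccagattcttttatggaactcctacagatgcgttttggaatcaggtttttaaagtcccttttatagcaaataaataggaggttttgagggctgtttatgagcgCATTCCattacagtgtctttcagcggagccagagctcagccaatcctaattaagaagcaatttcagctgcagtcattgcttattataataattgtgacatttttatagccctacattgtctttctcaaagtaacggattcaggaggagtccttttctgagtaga
AHNAK2: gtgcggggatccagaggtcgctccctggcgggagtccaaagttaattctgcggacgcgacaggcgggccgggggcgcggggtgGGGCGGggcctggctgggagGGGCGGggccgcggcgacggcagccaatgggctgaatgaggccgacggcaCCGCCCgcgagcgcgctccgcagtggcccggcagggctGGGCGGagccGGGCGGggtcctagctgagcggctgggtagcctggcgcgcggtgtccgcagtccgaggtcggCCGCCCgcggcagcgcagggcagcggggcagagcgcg

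The window whose start lay in a domain of the control list only was an internal start of LIMCH1 (chr4:41537907-41538206, plus strand). In the knockout list only were EMP1, an epithelial membrane protein (chr12:13196476-13196775, plus strand), and an internal start of SMAD3 (chr15:67125492-67125791, plus strand). They are printed because the results on gaps and splits below turn on such places.
LIMCH1: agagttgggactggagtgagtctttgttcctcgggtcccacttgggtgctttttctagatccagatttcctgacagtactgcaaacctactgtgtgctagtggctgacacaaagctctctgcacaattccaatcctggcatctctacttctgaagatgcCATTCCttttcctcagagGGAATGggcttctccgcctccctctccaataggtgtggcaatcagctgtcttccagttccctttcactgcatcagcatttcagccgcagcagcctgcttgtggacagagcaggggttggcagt
EMP1: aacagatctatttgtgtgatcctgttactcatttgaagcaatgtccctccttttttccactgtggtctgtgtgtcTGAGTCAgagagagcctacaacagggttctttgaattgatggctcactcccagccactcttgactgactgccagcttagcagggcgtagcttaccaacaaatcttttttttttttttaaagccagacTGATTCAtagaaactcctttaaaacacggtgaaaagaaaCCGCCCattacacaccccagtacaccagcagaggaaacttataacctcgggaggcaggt
SMAD3: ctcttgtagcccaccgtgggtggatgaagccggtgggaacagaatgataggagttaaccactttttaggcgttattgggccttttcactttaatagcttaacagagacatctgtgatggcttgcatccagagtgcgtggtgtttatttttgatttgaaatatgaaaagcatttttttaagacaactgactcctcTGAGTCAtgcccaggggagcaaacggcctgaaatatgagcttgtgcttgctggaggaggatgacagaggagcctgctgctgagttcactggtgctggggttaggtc

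The CD59 window held 3 AP-1 matches and 1 CpG, an observed-over-expected CpG ratio of 0.0513, inside domains of 14736 bases (control) and 15625 bases (knockout). CAPN2 and SPRED2 held 2 AP-1 matches each, with CpG ratios of 0.106 and 0.346. The SH3BP4 window held 1 AP-1 and 2 TEAD matches within domains of 50364 and 45446 bases, and the TES window 2 TEAD matches within 20423 and 21282 bases. AHNAK2 held 42 CpGs (ratio 0.972) and 6 GC boxes, with no AP-1 or TEAD match. At LIMCH1 the internal start, with 2 TEAD matches, lay in a control domain of 35815 bases and a knockout peak of 9273. At EMP1 the start, with 2 AP-1 matches, lay in no control peak and in a knockout domain of 17786 bases. The SMAD3 start, with 1 AP-1 match, lay between 2 control domains and inside the knockout domain of 94218 bases.

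The width threshold cut through a continuous distribution. Control domains had a median width of 13414 bases (range 10001 to 185349) and knockout domains of 13019 (10000 to 188217), against 1355 and 1551 bases for the shorter peaks. Control domains covered 27.1 of 183 Mb under peaks (14.8%), and knockout domains 24.0 of 176 Mb (13.6%). The control list had the longer tail: 285 domains reached 20 kb against 228, 85 reached 30 kb against 61, and 22 reached 50 kb against 9. Just inside the threshold in the control list were domains on CUBN (10001 bases), PARD3 (10007) and MAML1 (10011), and just outside were peaks on ALCAM (9997), IGF2BP2 (9992) and ADGRA3 (9985). In the knockout list the domains on CUBN (10000), CIBAR1 and RBM12B (10000) and P3H2 (10005) were just inside, and peaks on SAMD8 (9998) and at chr6:2850147-2860140 (9994) were just outside. Members just inside and peaks just outside thus differed in width by a few bases.

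**Figure D1:**
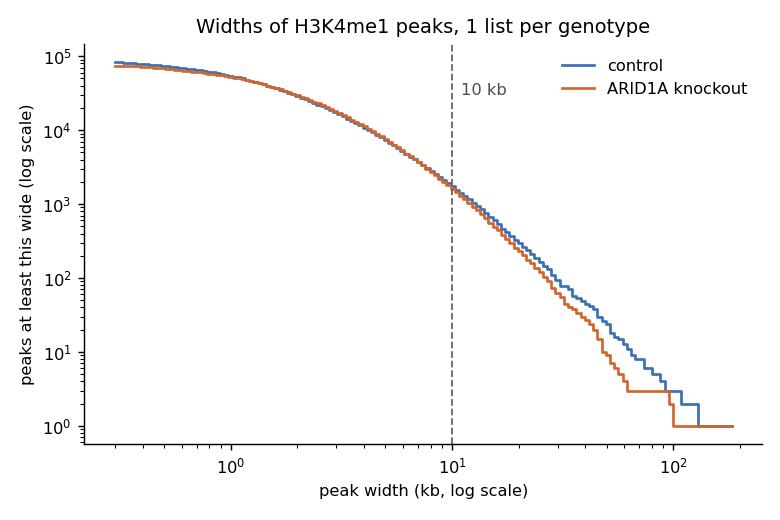
Number of H3K4me1 peaks at least as wide as the value on the x axis (kb), both axes logarithmic, for the control list (blue) and the ARID1A knockout list (orange); the dashed line marks 10 kb. The control curve lies above the knockout curve at 20 kb, with 285 against 228 domains, and at 50 kb, with 22 against 9.

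The authors' peak values show that domains were also strong peaks. Fold enrichment over input had a median of 4.25 in control domains against 3.02 in shorter control peaks, and 4.07 against 3.05 in the knockout list. Median −log10 q was 8.15 against 3.12 and 9.49 against 3.69. In the top quartile of −log10 q of their own list were 76.7% of control and 77.5% of knockout domains. Among domains, width and fold hardly moved together (Spearman correlation 0.0654 over 1663 control and 0.0589 over 1559 knockout domains, a description over peaks of the same libraries). The input background implied by pileup and fold was also higher under domains, at a median of 4.41 against 3.68 fragments in the control list and 6.17 against 4.58 in the knockout list. Its part in the widths was not tested.

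Most domains of one genotype met peaks of the other. Of the control domains, 984 (59.2%, 95% exact Clopper-Pearson interval 56.8 to 61.5) were overlapped by a broad knockout peak, 675 (40.6%) by shorter knockout peaks only, and 4 (0.241%) by none. Over all control peaks these shares were 2.82%, 69.0% and 28.2%, and 71.8% met some knockout peak. Of the knockout domains, 1002 (64.3%, 61.8 to 66.7) met a broad control peak, 553 (35.5%) shorter control peaks only, and 4 (0.257%) none. Over all knockout peaks the shares were 3.57%, 75.1% and 21.3%, with 78.7% meeting some control peak. A wider peak meets others more easily, so these backgrounds are not matched for width. Intervals here and below cover counting error over peaks only, and neighbouring peaks are not independent.

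The other list covered a median of 85.2% of a control domain (interval 84.0 to 86.4) and 90.9% of a knockout domain (89.8 to 92.4). Coverage reached 50% in 92.6% of control and 94.0% of knockout domains. The class met by shorter peaks only was still covered to a median of 69.4% (control) and 72.9% (knockout). Those domains were near the threshold, with median widths of 12201 and 11766 bases, against 14756 and 14000 where both lists were broad. Several peaks of the other list lay on 745 control domains (44.8%; up to 9 on 1 domain) and 619 knockout domains (39.7%; up to 6). Choosing a domain by its width in one list makes the other list look narrower at the same place, in both directions.

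The lists did not join peaks alike. Neighbouring control peaks were never closer than 1249 bases and knockout peaks never closer than 1445, and the shortest peaks were 312 and 361 bases long. With control peaks joined across up to 1444 bases and peaks under 361 bases dropped in both lists, an alternative that leaves knockout gaps as they are, the control list held 1912 domains. The number of control over knockout domains then was 1.23 instead of 1.07, and 69.2% of knockout domains met a broad control domain. Only control peaks could be joined at that distance, so the higher ratio comes from the alternative itself and is not a result about the genotypes. How much of the difference in number comes from joining, depth, fragment length or genotype cannot be told apart.

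Joining the domains of both lists where they overlapped gave 2198 loci, of which 962 (43.8%) held a domain in both lists, 679 in the control list only and 557 in the knockout list only. At the 962 shared loci the knockout peaks covered a median of 0.982 times the control bases (5th to 95th percentile 0.745 to 1.20). With 1 peak in each list, as at 599 of them, the median ratio was 0.994. Over all loci, knockout coverage was at least 1.5 times control at 200 (9.10%), and control at least 1.5 times knockout at 312 (14.2%). Over all 94743 regions made by joining the peaks of both lists, the same rules held for 27.5% and 35.6%, which counts peaks of 1 list only. These backgrounds are not matched for width, and both shares at the loci were below them.

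**Figure D2:**
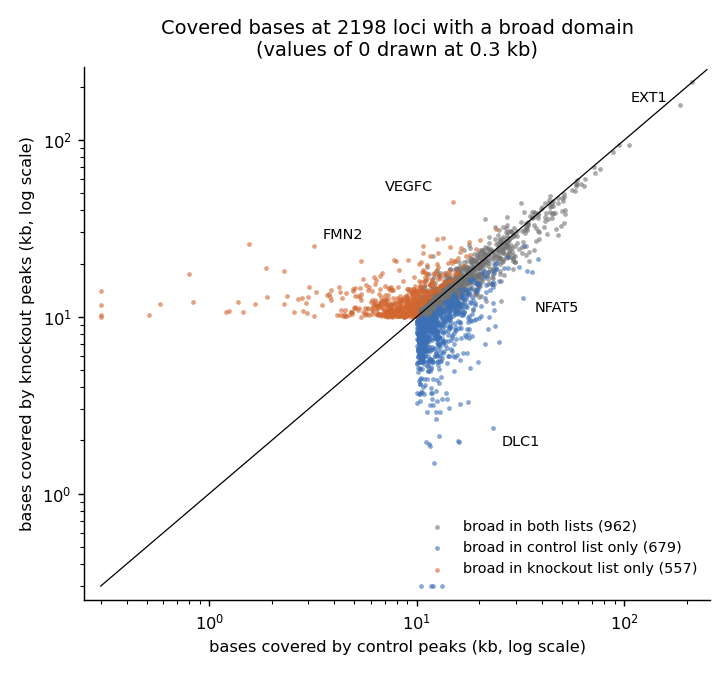
Bases covered by control peaks (x) and by knockout peaks (y) at each of 2198 loci with a broad domain, in kb on logarithmic axes, coloured by the list that holds the domain; the line marks equal coverage. The 962 loci broad in both lists lie along the line, and the loci broad in 1 list spread towards lower coverage in the other.

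EXT1 carried the longest H3K4me1 stretch (chr8:117892810-118107346). Control peaks covered 212476 bases of it as 2 domains of 125481 and 86995 bases, and knockout peaks 211447 bases, of which 188217 were 1 domain. Next came the PVT1 region (chr8:127796128-127982301), with 185349 bases in 1 control domain and 158162 bases in 9 knockout peaks, 4 of them broad. CRIM1, a membrane protein that binds bone morphogenetic proteins, had 105826 bases in 1 control domain and 94274 in 4 knockout peaks (chr2:36358531-36465268). Coverage was nearly equal at EXT1 (ratio 0.995), and lower in the knockout list at PVT1 (0.853) and CRIM1 (0.891).

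At SMAD3, the signal transducer of TGF-beta receptors, the division went the other way (chr15:67068258-67164401): 93860 bases in 2 control domains and 94218 in 1 knockout domain. TRIO, a guanine nucleotide exchange factor, had 87840 bases in 1 control domain and 85243 in 2 knockout domains (chr5:14163774-14252513). TRAM2, a protein of the endoplasmic reticulum translocon, had 76661 against 68940 bases (chr6:52497841-52574501), with an implied input background 1.82 times higher in the knockout list than the genome-wide ratio of the lists. SHB, an SH2 domain adaptor, had 71053 against 69907 (chr9:37994176-38066970), and RTN4, a reticulon that shapes the endoplasmic reticulum, 72397 against 65091 (chr2:54974386-55047698). FNDC3B had 64473 against 60005 (chr3:172122008-172186480). MYH9, the heavy chain of nonmuscle myosin IIA, had 1 domain of nearly equal width in each list, 59232 and 59338 bases. MAP4K4, a kinase of stress signalling, entered the 10 widest in the knockout list only, with 48175 bases, of which 2 control peaks covered 43997 (91.3%).

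Among loci with less coverage in the knockout list, the PVT1 region had the largest deficit, 27187 bases, with a ratio of 0.853. DLC1, a GTPase-activating protein, had 23238 bases in 1 control domain and 2338 bases in 2 knockout peaks (chr8:13219950-13243187; ratio 0.101). NFAT5, the transcription factor of the osmotic stress response, had 32659 against 12838 (chr16:69568546-69601204). BCAR3, an adaptor that binds p130Cas, had 47878 against 29079 (chr1:93588592-93636469), and LIMCH1, an activator of nonmuscle myosin, 35815 against 17840 (chr4:41502369-41538183). ANKRD11, a chromatin co-regulator, had 24926 against 7167 (chr16:89343759-89368684). Implied input background at these 6 loci was 0.951 to 1.17 times the genome-wide ratio of the lists.

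Among loci with more coverage in the knockout list, VEGFC came first. VEGFC encodes the growth factor of lymphatic vessels, and 44539 bases in 1 knockout domain stood against 15017 bases in 6 control peaks, none over 5285 bases (chr4:176745354-176789892). Joined across 1444 bases, the control peaks there still reached no more than 5285 bases. FMN2, a formin that nucleates actin, had 3193 against 25198 bases (chr1:240407965-240433162), and the long noncoding gene LOC107984168 1558 against 25856 (chr10:2200690-2226545). At those 2 loci the knockout over control ratio of implied input background was also high, at 1.72 and 2.24 times the genome-wide ratio. Its part in the difference was not tested. The control values rest on the few control bases under peaks. At LOC107984168 the control value was 2.41 fragments, near the lowest of the control list, 2.40. KYNU, the enzyme kynureninase, had 1885 against 18867 (chr2:142879432-142898298), with a background ratio of 1.27. The noncoding gene LOC105374020 had 801 against 17573 (chr3:104422280-104439852), and FXYD5 with FXYD7, modulators of the sodium pump, 2291 against 18099 (chr19:35152622-35170720). At none of these 6 did the control list reach 10 kb, also after joining.

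Only 8 domains met no peak at all of the other list. The 4 control ones were on GNG12 (10501 bases, chr1:67815324-67825824), LIMCH1 (13181, chr4:41555603-41568783), RBM39 (11914, chr20:35704125-35716038) and chr17:22117359-22129085 (11727), the last over 50 kb from a coding gene. Their fold enrichment was 2.51 to 3.12, below the control domain median of 4.25. The 4 knockout ones were on TCF4 (11738, chr18:55495046-55506783) and DSCAM (10245, chr21:40506310-40516554), at chr10:2138144-2152226 (14083) and at chr12:108366980-108377014 (10035). Their fold enrichment was 2.73 to 3.89, below the median of 4.07. LIMCH1 thus held both an unmatched control domain and a split one.

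The widest domains met by shorter peaks only show how the splits looked. In the control list these were DLG1, a polarity scaffold (38581 bases against 6 knockout peaks of up to 6918), LIMCH1, CSNK1A1, casein kinase 1 alpha (34117 against 4 peaks of up to 8532), KLHL29 (33042 against 4 of up to 8599), NFAT5, and DHX15, an RNA helicase of splicing (31125 against 6 of up to 7567). Knockout peaks still covered 25211 bases of the KLHL29 domain and 21161 of the DLG1 domain. In the knockout list they were VEGFC, PTPN12, a tyrosine phosphatase (31320 bases against 4 control peaks of up to 8236), ITGA2, the collagen receptor integrin alpha 2 (27900 against 5 of up to 5918), LINC02015 (27702 against 6 of up to 4344), SORCS2 (27311 against 4 of up to 8285) and ELOVL5, a fatty acid elongase (26373 against 3 of up to 9305). The control peaks covered 23989 bases at PTPN12 but 12463 at LINC02015. Of the 557 loci broad in the knockout list only, 77 (13.8%) held a broad control peak after joining, so the call of a knockout-only domain at those 77 rests on the joining distance.

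**Figure D3:**
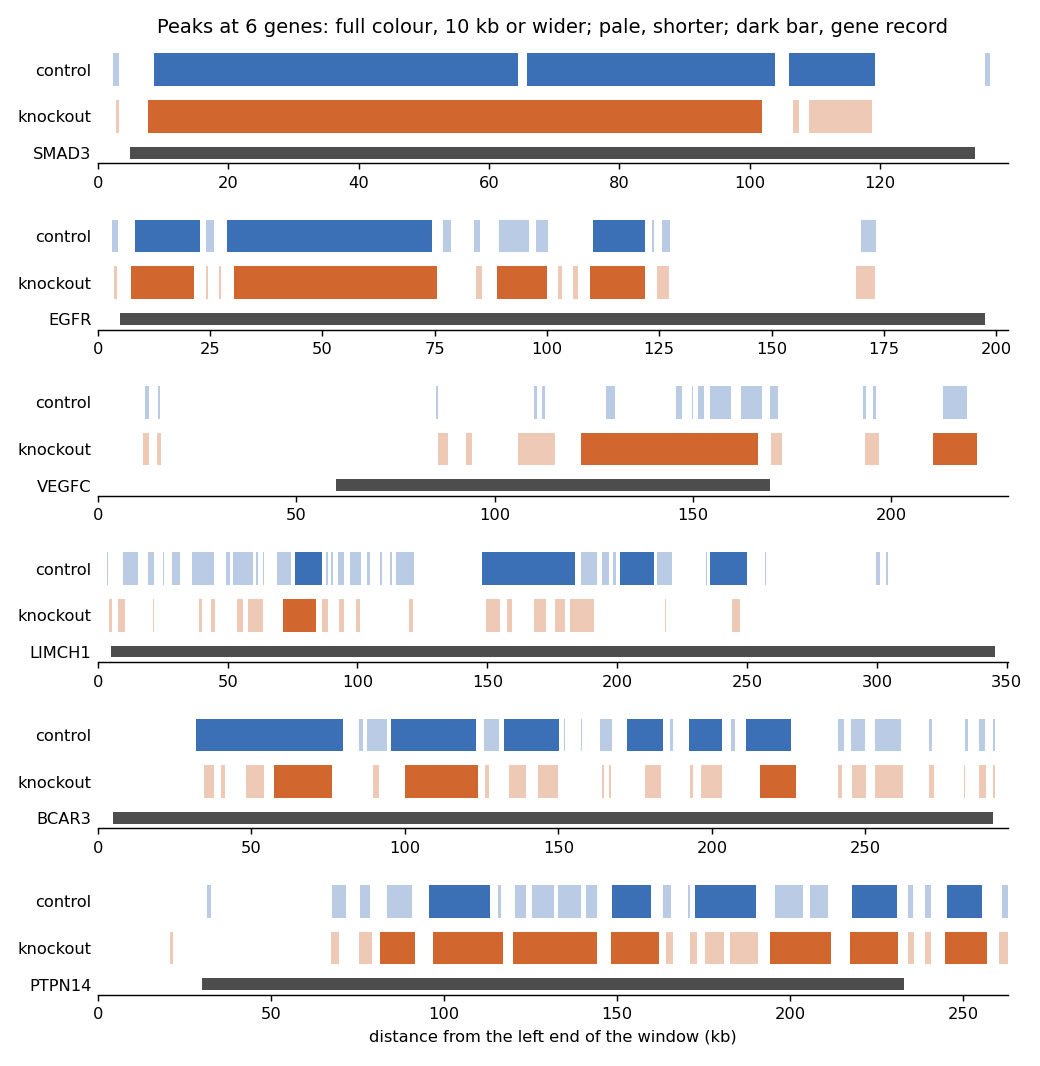
Control peaks (blue) and knockout peaks (orange) at SMAD3, EGFR, VEGFC, LIMCH1, BCAR3 and PTPN14, by distance in kb from the left end of a window around each gene, with the gene record as a dark bar; full colour marks peaks of 10 kb or more. SMAD3 and EGFR carry nearly the same stretches in both lists, VEGFC has no broad control peak, LIMCH1 and BCAR3 have fewer broad knockout peaks, and PTPN14 has more.

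Domains came in groups. Of the 2198 loci, 935 (42.5%) lay within 50 kb of another, in 374 groups. The group of 9 loci on DST, a linker of actin, intermediate filaments and microtubules, had 7 domains in each list, 122486 bases in control and 120842 in knockout. The 8 loci around PVT1 (chr8:127796128-128192620) had 291318 bases in 8 control domains and 163954 in 5 knockout domains. PTPN14, a phosphatase that restrains YAP, had 8 loci with 69535 bases in 5 control and 112089 in 7 knockout domains, while BCAR3 had 6 loci with 130693 bases in 6 control and 54006 in 3 knockout domains. The 5 loci on LPP, a focal adhesion protein, had 83119 bases in 5 control domains and 18960 in 1 knockout domain. The group of 6 loci on CLTC, PTRH2 and VMP1 had 4 domains in each list, 53773 bases in control and 58236 in knockout. These sums leave out peaks under 10 kb. In windows around the genes, such shorter peaks held 60342 control and 34038 knockout bases at PTPN14, and 38497 and 59518 at BCAR3. By domain bases alone, the DST and CLTC groups were thus nearly even, and the others named here were uneven in either direction.

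Genes with many domains were long. DST had 7 in each list, FRMD6, a FERM protein of the Hippo pathway, 4 in control and 6 in knockout, and NEDD4L, a ubiquitin ligase, 6 and 4. PTPN14 had 4 and 6 within its record, TRIO 4 and 5, and BCAR3 6 and 3. TRIO carried the most bases in domains of these, 142085 and 140031. Of all coding genes, 1123 (5.62%) were overlapped by a control domain, 1021 (5.11%) by a knockout domain, 678 (3.39%) by both and 1466 (7.34%) by either. A further 445 (2.23%) were overlapped in the control list only and 343 (1.72%) in the knockout list only. The median record was 90452 bases long for genes with a domain in both lists and 22099 for genes with none. Under 10 kb, 1.11% of genes had a control domain and 1.17% a knockout domain, whereas over 100 kb the shares were 12.9% and 12.7%. Median gene length is therefore given for each gene list below. Bases given there are those of domains, without shorter peaks, unless all peaks are named.

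A coding gene was overlapped by 82.3% of control domains and 78.9% of knockout domains. The midpoint lay inside a gene, over 1000 bases from either end, in 77.6% and 73.3% of domains, against 51.6% and 50.8% of shorter peaks. It lay over 50 kb from any coding gene in 8.06% and 10.7%, against 18.4% and 19.1%. No coding gene was touched by 295 control and 329 knockout domains, and 157 and 188 of these lay on a long noncoding RNA record. The annotation used gives gene records without exons, so exons, introns and UTRs were not told apart. Midpoints leaned to the 5′ part of genes: in genes of 30 kb or more the first 20% of the record held 38.1% of control and 37.8% of knockout midpoints, against 31.9% and 32.8% for shorter peaks. The last 20% held 7.27% and 7.65%, against 14.6% in each list.

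Few domains held a gene start, and coverage at the start was lower than at 10 kb upstream in the control list only. A start lay in 79 control domains (4.75%, 3.78 to 5.89) and 127 knockout domains (8.15%, 6.84 to 9.62). Only the 15813 of 19974 coding genes with a strand could count, so these shares of domains are lower bounds. Seen from the genes, 94 of 15813 starts (0.594%) lay in a control domain and 150 (0.949%) in a knockout domain. At 10 kb downstream of the start, control domains covered 3.41% of genes and knockout domains 2.53%, and at 10 kb upstream 1.01% and 0.753%. Shorter peaks covered 14.1% of starts among control peaks and 23.3% among knockout peaks, so the difference at starts was not limited to domains. Of 212 starts inside the loci, 84 lay in a gap between control peaks but within a knockout domain, and 14 the reverse; which starts count here is partly fixed by how loci were made. After joining control peaks across 1444 bases, 7.37% of control domains held a start, against 8.15% in the knockout list; that alternative also dropped peaks under 361 bases. The shares for shorter peaks were not recomputed under it.

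**Figure D4:**
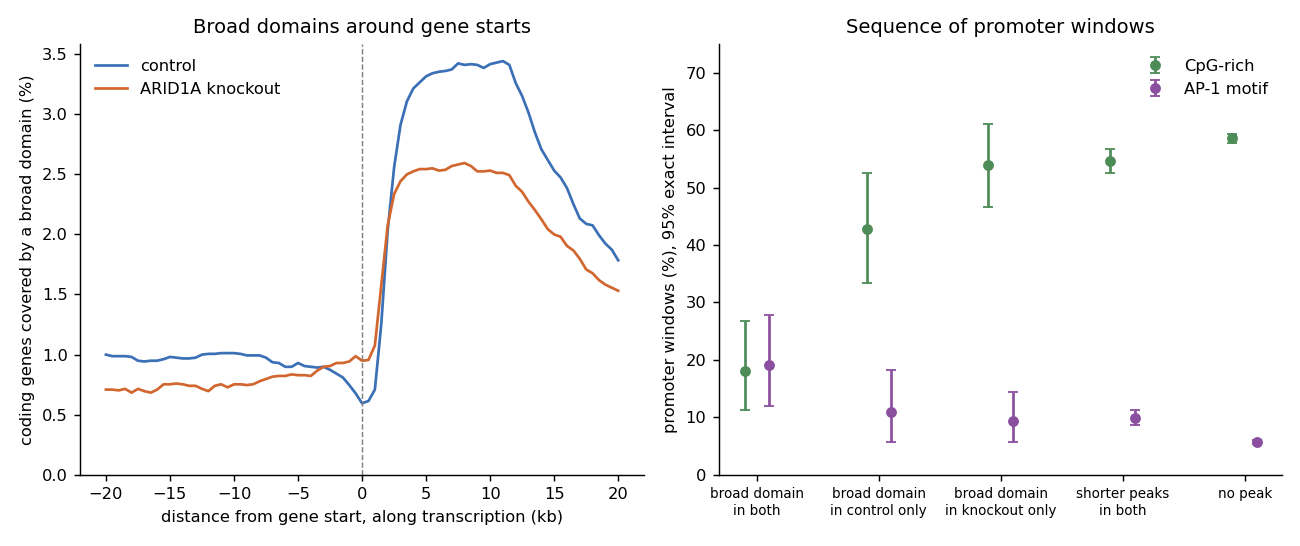
Left, percent of 15813 coding genes covered by a broad domain at each distance from the gene start (kb, positive along transcription), for control (blue) and knockout (orange). Right, percent of promoter windows that are CpG-rich (green) or hold an AP-1 motif (purple), with 95% exact intervals, by the peaks at the start. Coverage dips to 0.594% at the start in the control list. In the knockout list it is 0.949% at the start, above the 0.753% at 10 kb upstream. Downstream it rises to over 2.5% in both lists, and windows in domains of both lists are CpG-rich in 18.1% of cases.

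Most windows whose transcript start lay within domains of both lists were not CpG-rich. These windows include transcript starts inside gene records, whereas of the gene starts counted above 32 lay in a domain of both lists. Whether the CpG share goes with the kind of start or with the domain was not tested. A window was counted as CpG-rich with an observed-over-expected ratio of 0.6 or more and a GC content of 50% or more. That held for 19 of 105 windows with a domain in both lists (18.1%, 11.3 to 26.8), for 42.7% of 110 in the control list only and for 53.9% of 193 in the knockout list only. It held for 54.7% of 2252 windows with shorter peaks in both lists and for 59.9% of all windows. The AP-1 motif was in 20 of the 105 windows (19.0%, 12.0 to 27.9), as in the CD59, CAPN2 and SPRED2 windows printed above, against 9.90% under shorter peaks in both lists and 6.16% of all windows. The TEAD motif was in 15.2% against 12.2% of all windows, the GC box in 28.6% against 56.3%, the ETS motif CCGGAAG in 5.71% against 12.8%, and TATAAA in 10.5% against 9.49%. Windows of 1 gene or 1 domain overlap or lie close together, so the intervals are too narrow. CpG content and motif content go together in promoters, and their separate parts were not tested.

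MicroRNA hairpins within domains included several well-studied ones. Of 1558 hairpins with a position, 36 (2.31%) lay in a control domain, 33 (2.12%) in a knockout domain and 21 in both. MIR30A lay in a domain of 34426 bases in control and 34441 in knockout. MIR100 and MIRLET7A2, within the host gene MIR100HG, lay in domains of 30376 and 46952 bases, and MIRLET7A1 and MIRLET7F1 in domains of 11270 and 10116 bases. The knockout domain at the last pair stopped short of MIRLET7D, which lay in the control domain only. MIR29A and MIR29B1 lay in a control domain of 30372 bases, where the knockout list had a peak of 562 bases on MIR29A and none on MIR29B1. MIR193A had a control peak of 3974 bases and a knockout domain of 16755. MIR423 lay in no control peak and a knockout domain of 10814, and MIR148B in a control domain of 12013 and no knockout peak. H3K4me1 over a hairpin says nothing of the level of the microRNA, which was not measured.

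The mature sequences of these hairpins are printed to show which of the microRNAs just named share a seed; they come from RefSeq, 5′ to 3′, with the seed, bases 2 to 8, in capitals. The 3 let-7 sequences share the seed GAGGUAG, with MIRLET7D in a control domain only and the others in domains of both lists. The 2 miR-29 sequences share AGCACCA, and both hairpins lay in a control domain only. The other 5 sequences each have a seed of their own.
let-7a-5p: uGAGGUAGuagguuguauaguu
let-7f-5p: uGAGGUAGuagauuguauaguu
let-7d-5p: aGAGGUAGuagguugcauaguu
miR-29a-3p: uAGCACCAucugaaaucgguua
miR-29b-3p: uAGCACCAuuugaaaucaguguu
miR-30a-5p: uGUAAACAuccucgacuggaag
miR-100-5p: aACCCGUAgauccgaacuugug
miR-193a-3p: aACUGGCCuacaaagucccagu
miR-423-5p: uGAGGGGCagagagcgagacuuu
miR-148b-3p: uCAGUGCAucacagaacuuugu

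Gene lists were chosen for this cell type, for the complexes involved, and as contrasts from other cell types and ribosomal proteins. They were chosen with earlier results of these data known. In each peak list, 14 of the 18 had a larger share of genes with a domain than all coding genes. The 14 included luminal and hepatocyte genes in both peak lists, and neuronal and lymphocyte and endothelial genes in the knockout. SWI/SNF subunits (4.17%) and H3K4 methyltransferases and demethylases (5%) lay below in the knockout. Of 24 genes listed as YAP-TEAD targets, 13 had a control domain and 12 a knockout domain, 11 of them in both (median gene length 63491 bases). The list also holds members of the pathway itself, among them YAP1, WWTR1, TEAD1 and LATS2. CRIM1 led with 127880 bases in control and 107992 in knockout domains, followed by ASAP1, an Arf GTPase-activating protein (118680 and 67500), PTPN14 (59472 and 99971) and DLC1 (110335 and 28071). Of 35 genes of actin, focal adhesions and their regulators, 19 had a control and 22 a knockout domain, with a median gene length of 234192 bases. BCAR3 had 130693 and 54006 bases, MACF1, a linker of actin and microtubules, 106934 and 58508, and MYH9 59232 and 59338. Others of the list had domains in the knockout list only, 6 genes against 3 in the control list only. Named after their values were seen, these included ITGA2 (48485 bases), FMN2 (48221), ARHGAP24 (37512) and ARHGAP42 (32443) in knockout, and SIPA1L3 (29310) in control. The list thus held differences in both directions.

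Of 24 genes of the TGF-beta pathway, 7 had a control and 9 a knockout domain (median gene length 81255 bases). SMAD3 had 107002 and 94218 bases, SMURF2, a ubiquitin ligase that targets SMAD proteins and receptors, 59183 and 56139, the receptor gene TGFBR2 34784 and 62771, and the ligand gene TGFB2 35875 and 36175. Among 20 AP-1 and partner factors, 9 had a control and 7 a knockout domain (median gene length 13971 bases). The members with a domain were all longer than this median, from 14518 bases (MAFF) to 450235 (NFIB). FOSL2 was the only FOS or JUN family gene among them. ETS1 had 58606 and 52310 bases, RUNX1 40622 and 33387, BACH1 38554 and 38859, and RUNX2 28595 and 30542. Of 20 ErbB and receptor tyrosine kinase genes, 7 and 6 had a domain (median length 94651). EGFR had 71424 bases in 3 control and 82874 in 4 knockout domains, NRG1, an ErbB ligand, 16221 and 52267, MET 37944 and 12179, and FGFR1 22978 and 11125. In each of these 3 lists some members had more domain bases in control and others in knockout.

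Of 26 mesenchymal genes (median length 60575), 6 had a domain, the same 6 in both lists: among them PDGFC (73790 and 80917 bases), MSN (38585 and 37884), CD44 (33457 and 39171) and S100A4 (17641 and 19153). Glucocorticoid receptor and target genes had domains in 4 of 12 in control and 3 in knockout (median length 22319). The receptor gene NR3C1 had 14230 and 41282 bases, ANGPTL4 19892 and 15304, FKBP5 17105 and 11389, and PER1 14245 and none. Of 20 NF-kB and cytokine genes (median length 9339), 3 and 4 had a domain: LIF (21287 and 20810) and TRAF1 (12678 and 12299) in both lists, CXCL2 (21436) and IL1A (11230) in the knockout list only, and IL1B (10490) in the control list only. Of 19 sterol and fatty acid synthesis genes (median length 25653), 3 and 4 had one: SREBF2 had 16432 and 27165 bases, ELOVL6 14342 and 15067, SREBF1 10697 in control only and MVD 12964 in knockout only.

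Of 24 SWI/SNF subunit genes (median length 45603), 3 had a control domain (ARID1A, ARID1B with 10410 bases and SS18 with 10703) and 1 a knockout domain (ARID1A). ARID1A itself (chr1:26696015-26782104) had 6 control peaks with 37145 bases, 2 of them broad (22036 bases), and 7 knockout peaks with 32368 bases, 1 of them broad (11016). Peaks over the gene do not check the knockout. Of 20 genes of H3K4 methyltransferases and demethylases (median length 61972), SETD1B had a domain in both lists (10362 and 11047 bases) and KMT2A in the control list only (11016). Of 16 genes of the G1 phase (median length 15180), CDK6 alone had domains, 45301 bases in 3 control and 80074 in 5 knockout domains. Of 22 ribosomal protein genes (median length 4425), RPL3 alone had one (11573 and 10380).

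**Figure D5:**
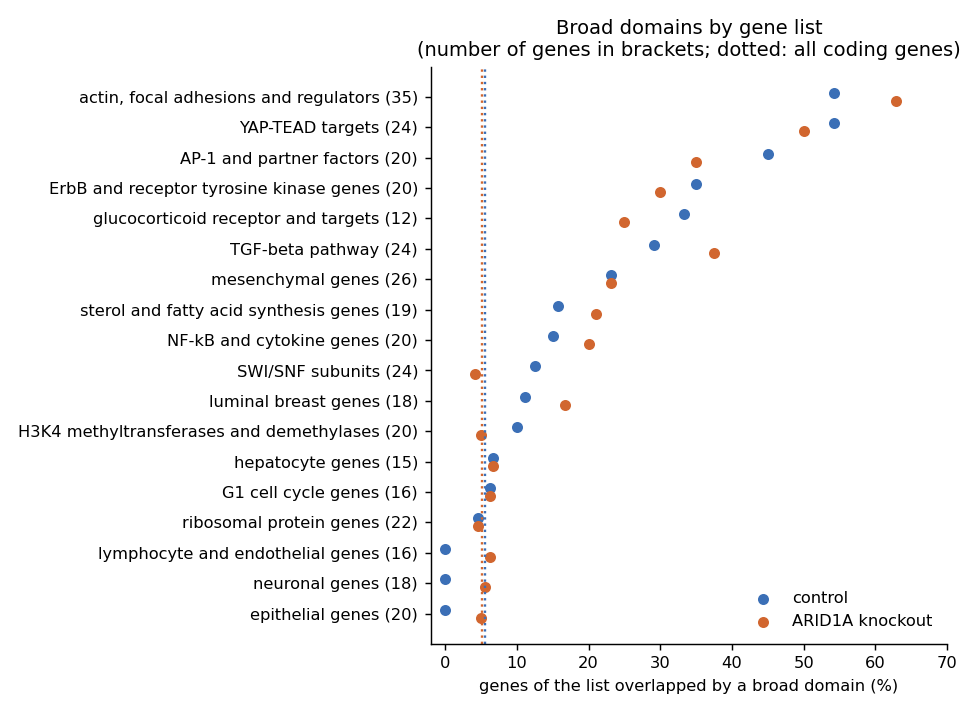
Percent of the genes of each list overlapped by a broad domain in the control (blue) and knockout (orange) lists, with the number of genes in brackets; dotted lines mark 5.62% (control) and 5.11% (knockout) of all coding genes. Actin and YAP-TEAD lists lie above 50% in at least 1 list, and neuronal and epithelial genes near or below the dotted lines.

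Shares of other cell types' genes with a domain lay near those of all coding genes (5.62% and 5.11%) or at 0, except for luminal genes. The luminal list had 11.1% in control and 16.7% in knockout, and in the knockout list epithelial genes had 5%, neuronal genes 5.56%, hepatocyte genes 6.67% and lymphocyte and endothelial genes 6.25%. Of 20 epithelial genes (median length 12156), none had a control domain and ELF3, an epithelial transcription factor, had a knockout one (18161 bases). Of 18 luminal genes (median length 41268), GATA3 had one in both lists (12566 and 12864), CA12 in control only (13391), and ESR1 (12246) and PRLR (11986) in knockout only. Neuronal genes had SNAP25 (11261, knockout only) out of 18 with a median length of 266694 bases, hepatocyte genes SERPINA1 (15417 and 11569) out of 15 (median length 13640), and lymphocyte and endothelial genes PECAM1 (13791, knockout only) out of 16 (median length 27532). Neither list had a peak on ALB. Of the markers fixed for the line, CD44, EGFR and MSN had a domain in both lists, while VIM, CAV1, AXL and FOSL1 had shorter peaks only.

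By chromosome, domains were 1.12% (X) to 2.70% (chromosome 10) of control peaks and 1.32% (chromosome 13) to 2.82% (chromosome 10) of knockout peaks. The ratio of knockout to control domains was highest on chromosome 21, with 17 against 10, and lowest on chromosome 17, with 67 against 90.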

How the data were processed

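Control and ARID1A knockout cells each had 2 immunoprecipitated and 2 input samples, grouped by the genotype and antibody labels. The protocol text in the labels names H3K4me3 where the titles and the antibody label name H3K4me1, which is used here. The genome build is hg38 and the tools are Bowtie2 2.3.5.1 and MACS2 2.2.6, per the submitters' processing notes. For each genotype the authors deposited 1 list of peaks. Neither the settings nor the use of the replicates are given in the sources used, and each list was taken as pooled. The deposited columns hold, per the file headers, peak position, pileup (a signal of stacked fragments), fold enrichment (a ratio over input), and −log10 of p and q values. Fold and −log10 q are the authors' own values per peak and serve only to describe or filter within a list. Depth is unknown.

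Peaks of 10000 bases or more on chromosomes 1 to 22 and X were taken (6 control and 3 knockout peaks elsewhere were left out, none broad) and classed by overlap of at least 1 base with Python 3.11.15, pandas 2.3.3 and scipy 1.17.1. Overlap code was checked on simulated intervals. Input background was estimated as (pileup + 1) / fold − 1, assuming a pseudocount of 1. At loci it was averaged over the peaks of each list, so the lists can rest on different bases. Genes, promoters and microRNAs come from RefSeq tables of GRCh38.p14; 15813 of 19974 coding genes had a strand. Named were the 10 widest domains per list, the 10 loci with most covered bases, the 6 loci with the largest excess each way, every domain without overlap, the 6 widest met by shorter peaks only per list, 3 on each side of the threshold, the 6 genes with most domains, ARID1A, and up to 4 members per gene list. Some items that this rule names are not reported here. The printed sequences and microRNAs, the groups and the further genes beside them were chosen after their values were seen. The members and lists were chosen with earlier results of these data known.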

Additional observations from a re-analysis of the deposited data

How the results depend on the processing

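With 8 alternatives, 14 results on counts, classes, coverage and genes moved beyond their counting interval, or by over 1.5 times for counts, as follows. At 8000 bases or more there were 2754 control and 2650 knockout domains on 1773 and 1668 genes, and 62.4% of control domains met a broad and 37.2% only shorter knockout peaks. At 12000 bases there were 1092 and 976 domains, 43.1% of control domains met shorter peaks only, and 666 genes had a knockout domain. In the widest 1% of each list (829 and 736 domains, on 608 and 515 genes), 55.97% of control domains met a broad peak, 44.0% shorter peaks only and 0% none; median coverage was 86.7% and 92.8%, and 82.3% and 78.5% had their midpoint in or at a gene. With −log10 q of at least 2, domains met by no peak were 0.662% (control) and 0.771% (knockout), and with at least 3, 1.47% and 1.69%. With the same joining distance and shortest width, control domains met broad peaks in 54.9% and shorter ones in 44.98% (median coverage 83.2%), and knockout domains in 69.2% and 30.5% (93.6%). When 50% of a domain had to be covered, the control classes were 56.0%, 36.6% and 7.40%, and knockout domains met shorter peaks in 31.3% and none in 5.97%. Counting genes by their start gave 94 and 150. The share of domains holding a gene start, added after the data were seen, was 9.66% in the knockout list at 8000 bases, 3.62% and 6.39% in the widest 1%, and 7.37% in the control list with the same joining distance. Causes were not tested. In every alternative that kept both classes, knockout domains met a broad control peak more often than the reverse. The knockout list also held fewer domains in each of them, which by itself raises its share, so this is not a separate result. No paired analysis was possible because each genotype has 1 list without replicate numbers, and for the same reason no replicate could be left out. Depth is unknown, so what it limits could not be measured.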
